A study of Mus musculus with 6 samples.

Results

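The 10 immediate early genes described here are Fos, Fosb, Fosl2, Jun, Junb, Jund, Egr1, Ier2, Ier3 and Klf6. They were taken by symbol from a table of 23358 gene rows; each symbol matched a single row, and 10 of 10 passed the filter on low counts, which left 14979 genes to test. RNA came from N1E115 cells, a clonal mouse neuroblastoma line with adrenergic features, here marked in the labels as NOS1+, that is, positive for neuronal nitric oxide synthase. Before RNA extraction they were kept for 3 days in 4% oxygen or, as the control, in 20% oxygen, at ambient barometric pressure, with 3 libraries per oxygen level. The labels name no other agent and no genotype that differs between the groups. Nothing in them ties the libraries to separate cultures. The p-values below therefore reflect only library-to-library spread, which may be technical. A line grown in culture has no neighbouring tissue. RNA was taken at a single time in both groups.

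Immediate early genes are transcribed within minutes of a growth factor, calcium or stress signal, without new protein synthesis, and their transcripts and proteins are short lived. Mitogen-activated protein kinases act on serum response factor and its partners, and on CREB-type factors, to switch them on. Fos and Jun family proteins pair through leucine zippers to form AP-1, which binds DNA at sites of the form TGANTCA, and Egr1 is a zinc finger factor that binds GC-rich sites. In neurons these transcripts are widely used as markers of recent activity.

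Libraries held 124259152 to 163695286 counts over genes, so counting error is small beside the spread between libraries for these genes, of which Fosb has the fewest counts. Replicate 1 under 20% oxygen stood farthest from the other libraries, with a mean root mean square difference of 0.970 in log2 CPM (CPM are counts relative to library size, scaled by the trimmed mean of M values, TMM) over all tested genes, against 0.766 to 0.868 for the other 5, and results that rest on it are given with and without it. Of 13 markers of sympathetic neuroblasts, 11 averaged over 1 CPM, and their summed level was 2453 to 2883 CPM under 4% oxygen and 1590 to 1910 CPM under 20% oxygen. The other two, the neurofilament genes Nefl and Nefm, stayed under 1 CPM in each library. Summed markers of immune cells (4 genes) reached 1.44 CPM under 4% oxygen and 1.97 CPM under 20% oxygen, and those of Schwann cells (5 genes) 1.97 CPM under 4% oxygen and 2.82 CPM under 20% oxygen. Of these 4 other marker lists 0 genes were at 0 in all 6 libraries, but Ptprc, Prrx1, Twist1 and Cdh5 were at or near 0 in each. Summed mesenchymal markers (5 genes) ran from 5.29 to 5.98 CPM under 4% oxygen and from 3.45 to 12.1 CPM under 20% oxygen, and endothelial ones (3 genes) from 4.31 to 6.02 CPM under 4% oxygen and from 2.02 to 9.99 CPM under 20% oxygen. The highest value of both was in replicate 1 under 20% oxygen, where Col1a1 (10.004 CPM) and Pecam1 (9.66 CPM) made up most of it. The part of these sums in any result below was not tested.

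Promoter windows were of 300 bases, from 250 before to 50 after the RefSeq transcription start (GRCm38.p6, the assembly of mm10). They were found for 8 of the 10 genes, all but Egr1 and Ier2. Those of Fos, Ier3 and Klf6 are shown because Ier3 had the largest difference upward between oxygen levels, Klf6 the largest difference downward, and Fos is the founding member of the class. Capitals mark ACGTG or GCGTG on either strand (CACGT or CACGC where the match is on the other strand), the core letters bound by hypoxia-inducible factors.
Fos: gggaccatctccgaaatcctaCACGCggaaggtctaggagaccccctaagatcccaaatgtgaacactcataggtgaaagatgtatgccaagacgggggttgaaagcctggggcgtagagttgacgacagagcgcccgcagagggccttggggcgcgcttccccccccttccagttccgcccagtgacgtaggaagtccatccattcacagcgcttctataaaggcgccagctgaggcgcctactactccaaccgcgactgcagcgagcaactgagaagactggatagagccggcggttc
Ier3: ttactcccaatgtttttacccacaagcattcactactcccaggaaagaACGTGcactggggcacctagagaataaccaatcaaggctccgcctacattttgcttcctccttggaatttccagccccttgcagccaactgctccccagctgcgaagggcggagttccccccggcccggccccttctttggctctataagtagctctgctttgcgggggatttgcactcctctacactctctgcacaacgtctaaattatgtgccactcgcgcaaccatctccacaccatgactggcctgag
Klf6: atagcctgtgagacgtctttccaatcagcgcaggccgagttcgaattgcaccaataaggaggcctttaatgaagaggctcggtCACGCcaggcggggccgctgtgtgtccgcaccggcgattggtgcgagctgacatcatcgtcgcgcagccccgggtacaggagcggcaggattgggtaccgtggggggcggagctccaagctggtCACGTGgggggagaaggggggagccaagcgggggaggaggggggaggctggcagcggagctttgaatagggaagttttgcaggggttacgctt
They lie at chr12:85473640-85473939 (Fos), chr17:35821463-35821762 (Ier3) and chr13:5861239-5861538 (Klf6), all on the plus strand. The Fos window holds 1 GCGTG match, on the minus strand at bases -229 to -225 from the start. The Ier3 window holds 1 ACGTG match at -202 to -198. In the Klf6 window ACGTG matches on both strands overlap in the palindrome CACGTG, and 1 GCGTG match lies on the minus strand at -167 to -163. Among all 32851 promoter windows of this length, 19.6% hold ACGTG and 32.4% hold GCGTG on either strand. Among the 8 windows of the set, 3 hold ACGTG (Ier3, Jund and Klf6) and 4 hold GCGTG (Fos, Fosb, Junb and Klf6). All matches and absences of a match rest on the RefSeq starts. The Jund window ends at base 70697788 of chromosome 8, before the first base of Jund in GENCODE release M21, 70698949. For Fosl2 the first GENCODE base, 32135801 of chromosome 5, lies before its window, which begins at 32136222. No window of the 8 genes holds an exact match to the AP-1 site TGANTCA (in 7.81% of all windows), the full cyclic AMP response element TGACGTCA (1.79%), the Egr site GCGTGGGCG (0.612%) or a CArG box (1.63%), the element bound by serum response factor. Variant forms were not counted, such as the stretch tgacgta in the Fos window. A GCGTG match can lie inside an Egr site, which did not occur here, and the serum response element of Fos is known to lie farther upstream than this window reaches.

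The gene models bear on the values. All 10 are protein-coding genes, and Jun, Junb, Jund and Ier2 have a single exon in their coding transcripts in GENCODE release M21. The Jund row (chromosome 8, 70697739 to 70700616) begins 1210 bases before the GENCODE gene, whose exon covers 1668 bases, and 877 of those bases also lie in exons of the antisense gene Gm11175. Junb shares 173 exon bases with the opposite-strand gene Prdx2, whose counts ran from 65860 to 126284, and Jun shares 232 with the antisense gene Junos. These overlaps were taken over all GENCODE exons of a gene. For Junb 492 exon bases lie outside its row, and whether the 173 shared bases are among them was not checked. Whether counting used strand is not given in the sources used here. Reads from the antisense partners therefore cannot be told apart from those of Jund and Jun. Whether any Prdx2 reads fall in the Junb row is not known. No other transcript matched a member over 100 or more bases at 90% identity.

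With the edgeR quasi-likelihood test and Benjamini-Hochberg adjustment over all 14979 genes, 0 of the 10 were called in either direction, against 0% of all genes in each direction. DESeq2 called 0.354% of all genes higher and 0.0401% lower, and 0 of the 10. With limma-voom 0 of all tested genes were called in either direction, and so 0 of the 10. At an unadjusted p under 0.05 there were 2 higher under 4% oxygen, Ier3 and Jund, against 3.01% of all genes, and 1 lower, Klf6, against 1.42% of all genes. The groups did not overlap for 3 genes higher under 4% oxygen (Fos, Jund and Egr1; background 6.33%) and 1 lower (Klf6; background 3.72%). The median log2 fold change of the 10 was 0.13, and that of all tested genes was -0.025. In bulk RNA a different level in all cells and a different share of cells with the transcript cannot be told apart.

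**Figure D1:**
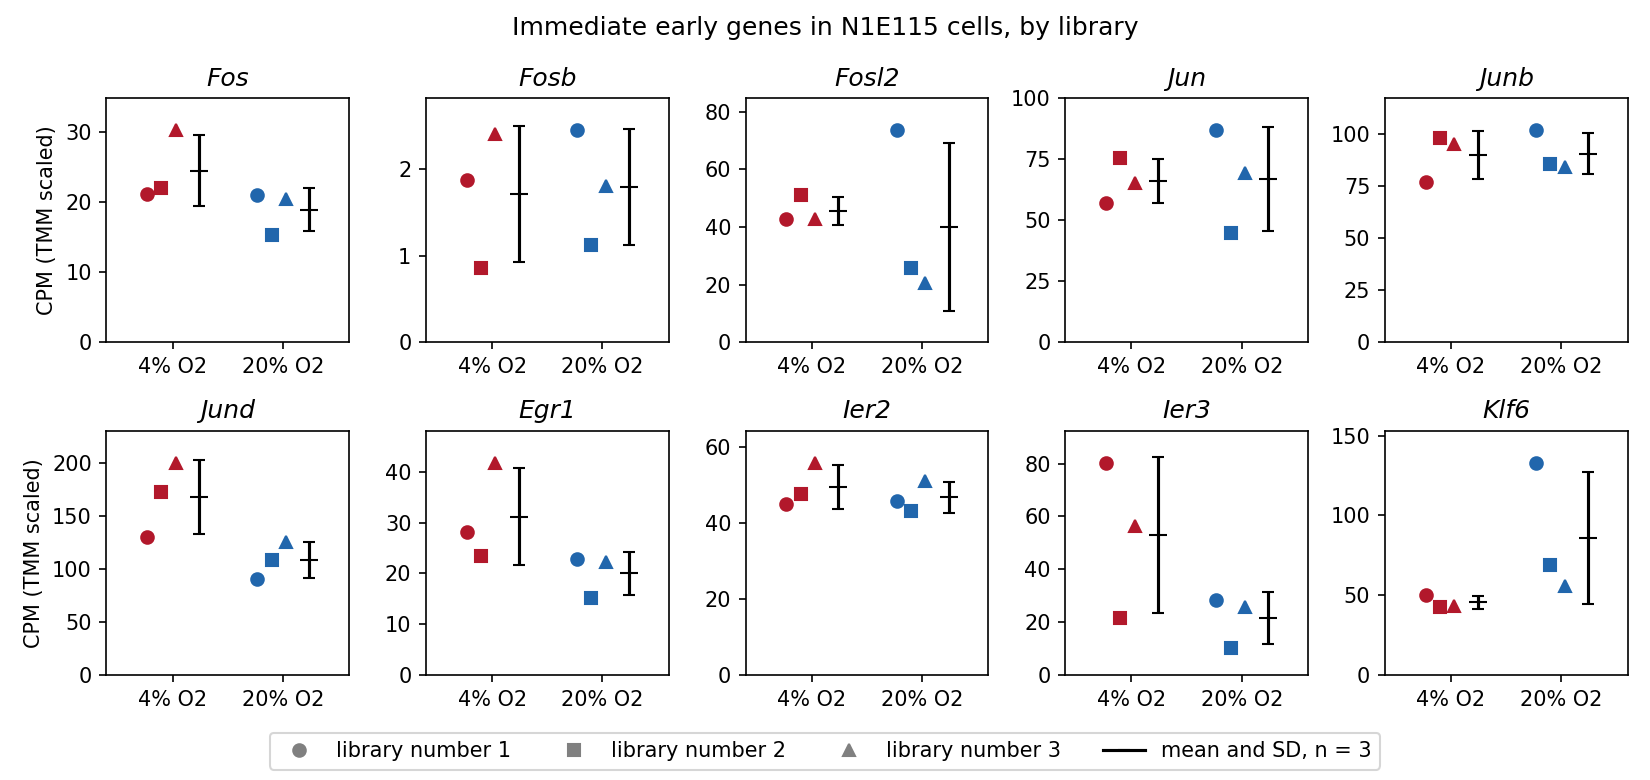
CPM (TMM scaled, linear axis from 0) of each gene in the 3 libraries under 4% oxygen (red) and the 3 under 20% oxygen (blue), with symbols for the library number and black bars for the mean and SD (n = 3). Jund lies between 131 and 201 CPM under 4% oxygen and between 91.1 and 126 CPM under 20% oxygen, while Klf6 lies at 42.8 to 50.5 CPM under 4% oxygen and at 55.5 to 133 CPM under 20% oxygen.

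Fos family genes encode the AP-1 subunits that cannot pair with themselves and need a Jun partner. Fos (chromosome 12, 85473901 to 85477270) had 2906, 3520 and 4630 counts in 4% oxygen replicates 1 to 3, against 2700, 1860 and 2716 counts in 20% oxygen replicates 1 to 3. These were 24.5 ± 5.07 CPM under 4% oxygen and 18.9 ± 3.07 CPM under 20% oxygen (SD, n = 3 each). The lowest 4% oxygen value, 21.1 CPM, lay just above the highest 20% oxygen value, 20.9 CPM, and this narrow gap closed under 3 of 3 other scalings of the libraries. The Fos log2 fold change was 0.37 (SE 0.27; edgeR adjusted p = 0.996), with a 95% interval from -0.21 to 0.96.

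Fosb, which in brain also gives a truncated and long-lived splice form, was the scarcest of the set. The Fosb row (chromosome 7, 19302696 to 19310045) had 258, 138 and 368 counts under 4% oxygen and 316, 136 and 240 counts under 20% oxygen. The groups overlapped fully, with the lowest value of each group in replicate 2. Fosb averaged 1.71 ± 0.785 CPM under 4% oxygen and 1.79 ± 0.664 CPM under 20% oxygen, for a log2 fold change of -0.064 with an SE of 0.49 (edgeR adjusted p = 0.996).

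Fosl2 encodes Fra-2, a Fos relative that lacks the strong activation domain of Fos. The Fosl2 row (chromosome 5, 32136472 to 32157839) had 5900, 8178 and 6518 counts under 4% oxygen and 9498, 3100 and 2752 counts under 20% oxygen. The 3 libraries under 4% oxygen lay close together, at 42.6 to 51.1 CPM, inside the range of the 20% oxygen libraries, which held both the highest value of all 6 (73.7 CPM, replicate 1) and the lowest (20.6 CPM, replicate 3). Fosl2 in 20% oxygen replicate 1 was 3.19 times the mean of the other two libraries of that group. With all 6 libraries the log2 fold change was 0.19 (SE 0.41; edgeR adjusted p = 0.996). Without 20% oxygen replicate 1 it was 0.98 (unadjusted p = 0.00217, edgeR adjusted p = 0.255), and without replicate 2 or 3 of that group it was -0.047 or -0.13.

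Jun family proteins form AP-1 with Fos proteins or with each other. Jun, the family's main activator, had 7900, 12080 and 9990 counts in 4% oxygen replicates 1 to 3, against 11232, 5402 and 9258 counts in 20% oxygen replicates 1 to 3 (chromosome 4, 95049036 to 95052222). The highest and the lowest of the 6 values both came from 20% oxygen libraries, so the groups overlapped. Jun averaged 66.0 ± 9.11 CPM under 4% oxygen and 67.1 ± 21.3 CPM under 20% oxygen, for a log2 fold change of -0.022 (SE 0.28; 95% interval -0.64 to 0.60).

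Junb, often a weaker activator than Jun at the same sites, had 10610, 15728 and 14552 counts under 4% oxygen and 13164, 10382 and 11210 counts under 20% oxygen (chromosome 8, 84976909 to 84978748). Its means were nearly equal, at 90.1 ± 11.5 CPM under 4% oxygen and 90.6 ± 9.95 CPM under 20% oxygen. The 95% interval of its log2 fold change ran from -0.52 to 0.50, before adjustment over all genes. That is a range of changes these libraries allow, not a limit of detection. Jund, at a log2 fold change of 0.63, also had an edgeR adjusted p of 0.996.

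Jund, the family member that is expressed steadily rather than in bursts and that restrains growth in fibroblasts, had 18042, 27632 and 30654 counts in 4% oxygen replicates 1, 2 and 3. In 20% oxygen replicates 1, 2 and 3 the Jund row had 11752, 13190 and 16744 counts. The groups did not overlap on any of the 4 scalings used, and in both groups replicate 1 was lowest and replicate 3 highest. Jund averaged 168 ± 35.1 CPM under 4% oxygen and 109 ± 17.2 CPM under 20% oxygen, for a log2 fold change of 0.63 (SE 0.25; unadjusted p = 0.0281, edgeR adjusted p = 0.996), or 1.55-fold. Without 20% oxygen replicate 1 the log2 fold change was 0.52 (unadjusted p = 0.0642), and the unadjusted p was under 0.05 in 2 of 6 fits with a library left out, those without 20% oxygen replicate 3 or 4% oxygen replicate 1. The Jund log2 fold change was lowest without 4% oxygen replicate 3, at 0.48 (unadjusted p = 0.144). In each same-numbered pair of libraries the 4% oxygen value was higher, by log2 ratios of 0.52, 0.66 and 0.68.

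The make-up of the Jun family was compared within each library on the authors' RPKM values (reads scaled to a length headed coding length and to library total). For Jun and Ier2 that length, 3187 and 1522 bases, equals the GENCODE exon bases inside the row, untranslated parts included. Jund made up 43.2%, 43.8% and 49.1% of the summed Jun, Junb and Jund RPKM under 4% oxygen, and 27.7%, 38.4% and 39.3% under 20% oxygen. Junb made up 39.7%, 39.0% and 36.5% under 4% oxygen and 48.5%, 47.3% and 41.1% under 20% oxygen. On these values Jund was the highest of the 3 in each 4% oxygen library, and Junb in each 20% oxygen library. That order rests on the lengths in the authors' table, 2878 bases for Jund and 1840 for Junb. With the GENCODE exon lengths of 1668 and 2301 bases and the same counts, a comparison added after the data were seen, Jund was the highest in all 6 libraries, at 60.4% to 66.0% of the family under 4% oxygen and 43.3% to 56.4% under 20% oxygen. Changing the lengths scales the ratio of Jund to Junb by the same factor in each library. The counts came from the authors' rows, and 492 of the 2301 GENCODE exon bases of Junb lie outside its row. The Jund row in turn holds bases outside its 1668. Neither set of lengths settles which of Jund and Junb was higher. The Jund share did not overlap between the groups with either set of lengths. The Jun share overlapped between the groups, at 16.3% ± 1.58 under 4% oxygen and 19.2% ± 4.84 under 20% oxygen (SD, n = 3 each). Because the shares of a library add up to a whole, a higher Jund share goes with a lower share of the others, and the reads of the Jund row that lie before the GENCODE start are counted in it. In the Fos family the Fosl2 share of the summed Fos, Fosb and Fosl2 RPKM was 39.4% ± 6.29 under 4% oxygen and 38.7% ± 14.4 under 20% oxygen, with 54.1% in 20% oxygen replicate 1.

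**Figure D2:**
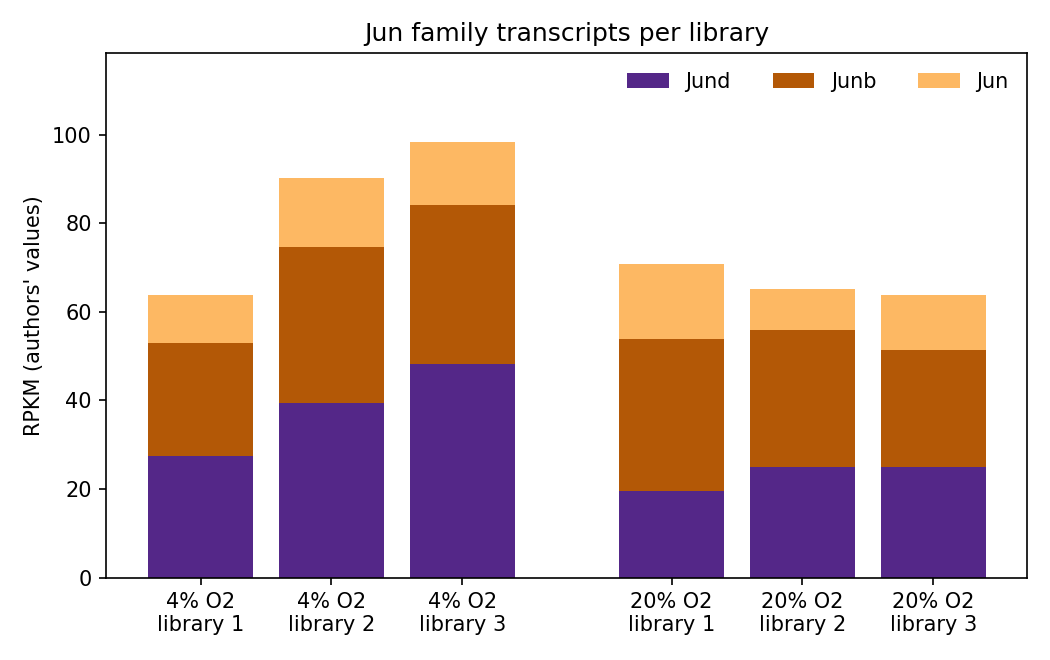
Stacked RPKM (authors' values, per kilobase of the length in their table) of Jund (bottom), Junb (middle) and Jun (top) in the 3 libraries under 4% oxygen, left, and the 3 under 20% oxygen, right. The bottom segment is 27.6, 39.5 and 48.3 RPKM under 4% oxygen and 19.6, 25.0 and 25.1 RPKM under 20% oxygen, while the Junb segment is 25.4 to 35.9 RPKM under 4% oxygen and 26.3 to 34.4 RPKM under 20% oxygen.

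Egr1, the zinc finger factor whose transcript is often induced together with Fos, had 3888, 3744 and 6384 counts in 4% oxygen replicates 1 to 3, against 2940, 1836 and 2958 counts in 20% oxygen replicates 1 to 3 (chromosome 18, 34861207 to 34864956). All 3 libraries under 4% oxygen lay above those under 20% oxygen on 3 of 4 scalings, with the lowest 4% oxygen library at 23.4 CPM and the highest 20% oxygen library at 22.8 CPM. Egr1 averaged 31.1 ± 9.53 CPM under 4% oxygen and 20.1 ± 4.24 CPM under 20% oxygen, for a log2 fold change of 0.63 (SE 0.30; unadjusted p = 0.054, edgeR adjusted p = 0.996). With the library number as a block the unadjusted edgeR p of Egr1 was 0.0216 and the adjusted p 0.469. Without 4% oxygen replicate 3, the library highest in Egr1, the log2 fold change was 0.36.

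The other Egr genes were named after their values were seen. Egr2 averaged 3.57 ± 1.41 CPM under 4% oxygen and 2.66 ± 1.25 CPM under 20% oxygen (SD, n = 3 each), and Egr3 averaged 0.474 ± 0.349 CPM under 4% oxygen against 0.123 ± 0.0849 CPM under 20% oxygen. The Egr3 groups did not overlap, but Egr3 was near the floor in each library, at most 0.871 CPM, and its log2 fold change of 1.93 had an SE of 0.83 (unadjusted p = 0.0391, edgeR adjusted p = 0.996). Egr4 did not pass the filter on low counts.

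The Ier genes share a name for early induction, not a protein family. Ier2, which encodes a short nuclear protein, had 6200, 7618 and 8554 counts under 4% oxygen and 5924, 5240 and 6822 counts under 20% oxygen (chromosome 8, 84661331 to 84662852). It was the steadiest of the set, with a within-group SD of 0.14 on the log2 scale, against a median of 0.40 over all tested genes. Ier2 averaged 49.5 ± 5.74 CPM under 4% oxygen and 46.8 ± 4.02 CPM under 20% oxygen, for a log2 fold change of 0.081 (SE 0.23; 95% interval -0.42 to 0.59).

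Ier3, also called IEX-1, encodes a membrane-associated protein that modulates cell survival and the kinase ERK, and its difference was the largest of the 10. The Ier3 row (chromosome 17, 35821713 to 35822911) had 11076, 3460 and 8650 counts in 4% oxygen replicates 1 to 3, against 3672, 1232 and 3434 counts in 20% oxygen replicates 1 to 3. Replicate 2 was the lowest library of both groups, and its 4% oxygen value of 21.6 CPM lay inside the 20% oxygen range of 10.2 to 28.5 CPM. Ier3 averaged 52.9 ± 29.5 CPM under 4% oxygen and 21.5 ± 9.88 CPM under 20% oxygen, for a log2 fold change of 1.30 (SE 0.47; unadjusted p = 0.0187, edgeR adjusted p = 0.996), or 2.46-fold. Within same-numbered pairs the ratios lay closer together, with Ier3 log2 ratios of 1.496, 1.09 and 1.14. With the library number as a block the SE of Ier3 was 0.22 in place of 0.47 and the edgeR adjusted p was 0.0746, which still missed the threshold. Without 20% oxygen replicate 1 the log2 fold change was 1.56. It was lowest without 4% oxygen replicate 1, at 0.85 (unadjusted p = 0.125), and without 20% oxygen replicate 2 it was 0.96 (unadjusted p = 0.0527).

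Klf6, a Krüppel-like zinc finger factor known for early induction and for growth restraint, was the gene whose values lay lowest under 4% oxygen relative to 20% oxygen. The Klf6 row (chromosome 13, 5861489 to 5870393) had 6958, 6856 and 6596 counts under 4% oxygen and 17148, 8342 and 7398 counts under 20% oxygen. The 4% oxygen libraries lay within 42.8 to 50.5 CPM, and each 20% oxygen library lay above them, at 133, 68.9 and 55.5 CPM in replicates 1, 2 and 3. Klf6 averaged 45.5 ± 4.32 CPM under 4% oxygen and 85.8 ± 41.4 CPM under 20% oxygen, for a log2 fold change of -0.92 (SE 0.32; unadjusted p = 0.0158, edgeR adjusted p = 0.996). In 20% oxygen replicate 1 the Klf6 level was 2.14 times the mean of the other two libraries of its group. Without that library the Klf6 log2 fold change was -0.45 (unadjusted p = 0.0765), and without 4% oxygen replicate 3 it was -0.88 (unadjusted p = 0.052).

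**Figure D3:**
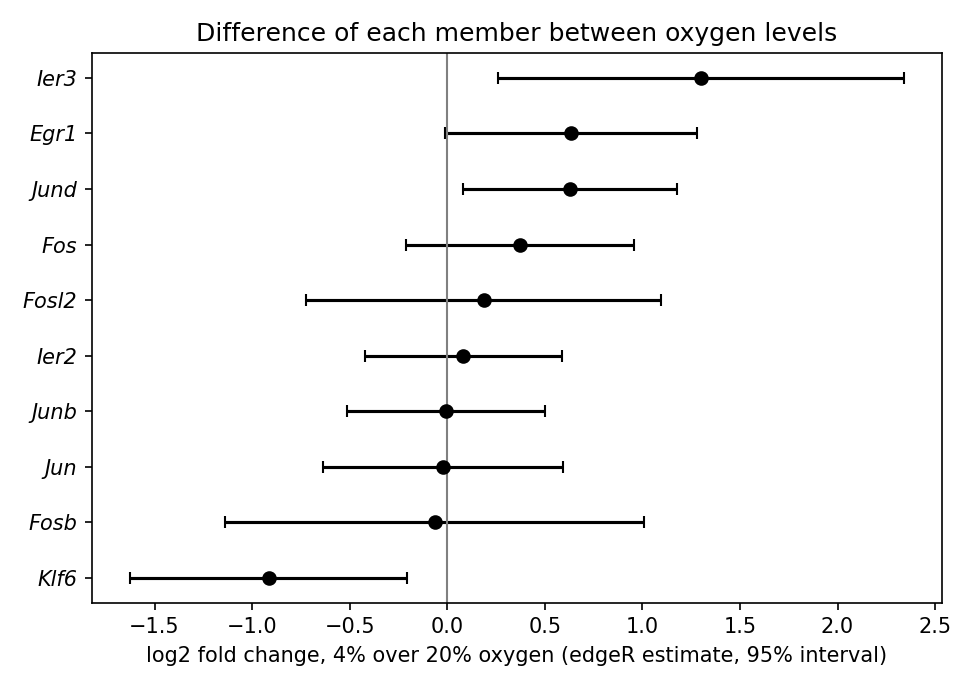
Log2 fold change of each gene, 4% over 20% oxygen (edgeR estimate, points) with its 95% interval (bars), all 6 libraries. The intervals of Ier3 (0.26 to 2.34), Jund (0.081 to 1.18) and Klf6 (-1.62 to -0.21) leave out 0 before adjustment over all genes, and those of the other 7 include it.

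The libraries numbered alike deviated together over all genes, so the ratio within each pair was also read for each early gene. In all 3 pairs the 4% oxygen library was higher for 4 genes (Fos, Jund, Egr1 and Ier3), against 17.3% of all tested genes, and lower for 1 (Klf6), against 14.3%. For Fos the first pair was close to equal, at a log2 ratio of 0.0096, against 0.52 and 0.57 in the pairs numbered 2 and 3. Fosl2 and Junb had a ratio below 0 in the pair numbered 1 (-0.78 and -0.41) and ratios above 0 in the others (0.997 and 1.05 for Fosl2, 0.20 and 0.18 for Junb). Jun was lower under 4% oxygen in the pairs numbered 1 and 3 (-0.60 and -0.088) and higher in the pair numbered 2 (0.76). With the replicate block, 3 members were higher at an unadjusted p under 0.05 (Jund, Egr1 and Ier3; background 6.01%) and 1 lower (Klf6; background 2.86%), and 0 were called after adjustment, against 0.0734% of genes called higher and 0% lower.

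**Figure D4:**
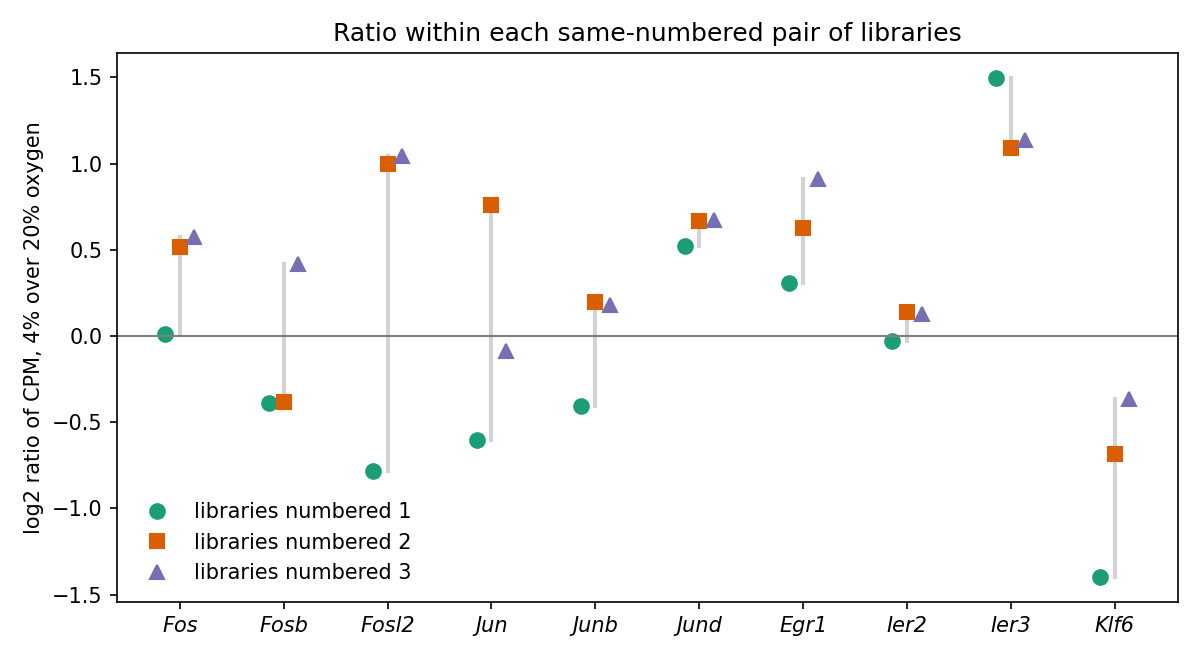
Log2 ratio of CPM, 4% over 20% oxygen, within the libraries numbered 1 (circles), 2 (squares) and 3 (triangles), for each gene. Ier3 lies above 1 and Jund above 0.5 in each pair, while the ratios of Fosl2 run from -0.78 to 1.05.

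Levels of different genes can be set side by side only per length, so the order within the set was read from RPKM, which rest on the lengths in the authors' table. At 4% oxygen it ran from Jund (38.5 ± 10.4 RPKM) through Junb (32.1 ± 5.89), Ier3 (31.3 ± 16.3), Ier2 (21.3 ± 3.85), Jun (13.6 ± 2.42), Fos (7.69 ± 2.08), Klf6 (7.02 ± 0.292), Egr1 (6.67 ± 2.41) and Fosl2 (5.07 ± 0.658) to Fosb (0.298 ± 0.146 RPKM; SD, n = 3). At 20% oxygen it ran from Junb (30.5 ± 4.07 RPKM) through Jund (23.2 ± 3.14), Ier2 (18.9 ± 0.332), Jun (12.9 ± 3.85), Klf6 (12.6 ± 6.19), Ier3 (12.0 ± 5.19), Fos (5.54 ± 0.672), Fosl2 (4.23 ± 3.10) and Egr1 (4.00 ± 0.678) to Fosb (0.291 ± 0.104 RPKM). Among neighbours in the 4% oxygen order, the library ranges were separate between Ier2 and Jun, between Jun and Fos, and between Fosl2 and Fosb, and they overlapped elsewhere. In the 20% oxygen order they were separate from Junb to Jun and between Egr1 and Fosb. Over both groups Junb and Jund stood at percentiles 89.2 and 89.0 of mean RPKM among all tested genes, Fos and Egr1 at 59.8 and 55.0, and Fosb at 18.2.

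The genes also differed in how steady they were between libraries of a group. The within-group SD of log2 CPM was above the all-gene median of 0.40 for 4 of the 10, Ier3 (0.90), Fosl2 (0.70), Fosb (0.67) and Klf6 (0.47). It was lowest for Ier2 (0.14), Junb (0.17), Fos (0.27) and Jund (0.28). Among the 10, the highest value lay mostly in 4% oxygen replicate 3 or 20% oxygen replicate 1. How often each library held the extreme value over all tested genes was not counted. 4% oxygen replicate 3 was the highest of the 6 for 4 genes (Fos, Jund, Egr1 and Ier2), and 20% oxygen replicate 1 for 5 (Fosb, Fosl2, Jun, Junb and Klf6). 20% oxygen replicate 2 was the lowest for 5 genes (Fos, Jun, Egr1, Ier2 and Ier3). In 20% oxygen replicate 1 the level was above the mean of the other two libraries of its group for 8 of the 10 genes, against 48.8% of all tested genes, and Jund (0.777 times) and Ier2 (0.973 times) were below it. Of the 10, 1 was above the 90th percentile of this ratio over all tested genes.

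**Figure D5:**
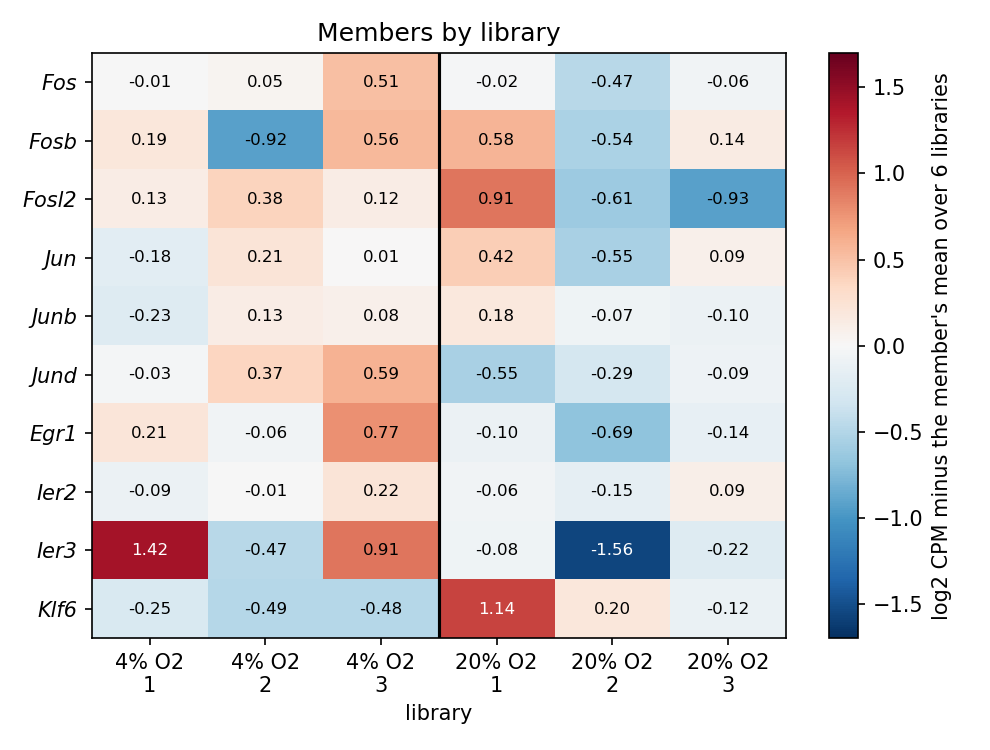
Log2 CPM of each gene minus its mean over the 6 libraries, with the 4% oxygen libraries left of the line and the 20% oxygen libraries right of it. Ier3 runs from 1.42 in 4% oxygen replicate 1 to -1.56 in 20% oxygen replicate 2, and 20% oxygen replicate 1 holds the highest value of Klf6 (1.14) and Fosl2 (0.91).

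How alike the patterns over the 6 libraries were was measured as the root mean square difference of log2 CPM after centring each gene on its mean. The closest pairs within the set were Junb with Ier2 (0.163), which lie 314057 bases apart on chromosome 8, Fos with Egr1 (0.178) and Fos with Ier2 (0.192). This difference is small between any genes that vary little, and Ier2 and Junb had the lowest within-group SD of the set (0.14 and 0.17). The value for Junb with Ier2 therefore does not show that they varied together. The farthest was Ier3 with Klf6 (1.25). Among 10326 other genes of at least 5 CPM, Capn10 was among the closest to Fos (0.0769), against a median of 0.434. The closest to Egr1 were Triobp (0.066), Tubg2 (0.0864) and Zfp775 (0.109), against a median of 0.554. The 6 libraries are the only points behind these distances, and among so many genes some lie close to any pattern.

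Of 140 further genes of the pathway in 5 lists, 120 were tested, and edgeR called 0 of them in either direction after adjustment over all genes. Their counts are to be read against all tested genes, of which 47.3% had an estimate above 0, 3.01% were higher and 1.42% lower at an unadjusted p under 0.05, and 6.33% were higher and 3.72% lower with groups that did not overlap. Besides the members, 10 other AP-1 and Maf subunit genes were tested, of 15 listed, and 2 of the 10 estimates were above 0 (median log2 fold change -0.15). Batf3 was lower at an unadjusted p under 0.05. Batf3, a partner of Jun proteins best known from dendritic cells, had 1.38, 0.55 and 1.30 CPM under 4% oxygen and 3.37, 1.73 and 2.94 CPM under 20% oxygen, for a log2 fold change of -1.32 (SE 0.48). Its groups did not overlap. Maff, a small Maf factor, averaged 47.5 ± 9.29 CPM under 4% oxygen against 34.3 ± 17.1 CPM under 20% oxygen (SD, n = 3 each).

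Among 35 tested immediate early genes of other families, of 40 listed, 12 estimates were above 0 and the median log2 fold change was -0.17. At an unadjusted p under 0.05, 2 of the 35 were higher (Btg2 and Egr3; 3.01% of all genes) and 2 lower (Sgk1 and Trib1; 1.42% of all genes). Btg2, an antiproliferative gene that p53 also induces, had 52.0, 29.3 and 40.2 CPM in 4% oxygen replicates 1 to 3, against 17.0, 12.5 and 23.5 CPM in 20% oxygen replicates 1 to 3. The groups did not overlap, and the log2 fold change of Btg2 was 1.20 (SE 0.31), with an edgeR adjusted p of 0.542 that was 0.121 under the block. Sgk1, a kinase induced by serum and glucocorticoids, averaged 83.7 ± 30.5 CPM under 4% oxygen and 179 ± 61.4 CPM under 20% oxygen, for a log2 fold change of -1.10 with an SE of 0.33 (edgeR adjusted p = 0.803). Trib1, a pseudokinase, averaged 21.3 ± 6.93 CPM under 4% oxygen against 38.0 ± 17.2 CPM under 20% oxygen. Rhob, a small GTPase, was the third gene of this list whose groups did not overlap besides Btg2 and Egr3, at 49.2 ± 4.47 CPM under 4% oxygen and 36.1 ± 5.36 CPM under 20% oxygen, and was named after its values were seen.

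Feedback inhibitors of the pathway, dual-specificity phosphatases, Sprouty and Spred proteins and the Egr corepressors Nab1 and Nab2, had log2 fold changes with a median of -0.065 over 18 tested of 18 listed, with 8 estimates above 0. Spred3, an inhibitor of Ras and ERK signalling, was the 1 gene of the list at an unadjusted p under 0.05, at 20.9 ± 4.84 CPM under 4% oxygen and 13.9 ± 0.793 CPM under 20% oxygen (log2 fold change 0.59, SE 0.27). Nab2, which Egr1 itself induces and which then restrains it, averaged 41.6 ± 4.91 CPM under 4% oxygen against 29.3 ± 9.96 CPM under 20% oxygen. The phosphatase gene Dusp2 averaged 43.4 ± 18.3 CPM under 4% oxygen against 60.8 ± 17.1 CPM under 20% oxygen, and the groups overlapped for both genes.

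Kinases and transcription factors upstream of the early genes had a median of 0.035 over 36 tested of 37 listed, with 21 estimates above 0. Map2k1, which encodes the ERK-activating kinase MEK1, had 135, 186 and 178 CPM under 4% oxygen and 106, 111 and 111 CPM under 20% oxygen, groups that did not overlap (log2 fold change 0.60, SE 0.23; unadjusted p = 0.0225, edgeR adjusted p = 0.996). Atf1, a CREB relative, was the 1 gene lower at an unadjusted p under 0.05, at 20.8 ± 2.58 CPM under 4% oxygen and 32.3 ± 7.66 CPM under 20% oxygen (log2 fold change -0.63, SE 0.27). Mkl1, an actin-regulated partner of serum response factor, averaged 29.5 ± 5.97 CPM under 4% oxygen against 21.6 ± 5.03 CPM under 20% oxygen.

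Genes known as targets of AP-1 or Egr1 in other cells had a median of -0.16 over 21 tested of 30 listed, with 6 estimates above 0. Th, which encodes tyrosine hydroxylase and has an AP-1 element in its rat promoter, had 482, 548 and 500.3 CPM under 4% oxygen and 386, 309 and 280 CPM under 20% oxygen. Its groups did not overlap and its log2 fold change was 0.65 (SE 0.22; unadjusted p = 0.0134, edgeR adjusted p = 0.963), but Th is also one of the sympathetic neuroblast markers whose sum was higher under 4% oxygen. F3, tissue factor, averaged 9.004 ± 1.20 CPM under 4% oxygen and 15.1 ± 8.66 CPM under 20% oxygen, and the cytokine gene Il6 averaged 1.91 ± 0.915 CPM under 4% oxygen against 3.37 ± 1.25 CPM under 20% oxygen, both with groups that overlapped.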

How the data were processed

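The authors deposited raw gene counts and RPKM values for 23358 gene rows in 6 libraries, per the file headers. The submitters' processing notes name mm10, HTSeq, Bowtie and TopHat2 2.0.6, with no role given for each. The labels name both a stranded total RNA kit and an mRNA kit. Even numbers made up 100% of the count values, the pattern that counting each mate of a read pair gives. RPKM was computed by the authors from the length headed coding length in their table and a library total. Gene counts made up 57.6% to 67.8% of that total. No sample column lacked a sample (0 columns).

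Counts were tested with edgeR 4.0.16 (R 4.3.3): filterByExpr (minimum count 10, minimum total 15), TMM scaling and a two-sided quasi-likelihood test of 4% against 20% oxygen without a block, with calls at a Benjamini-Hochberg adjusted value under 0.05. SE is the log2 fold change over the square root of F. The common biological coefficient of variation was 0.359. Alternatives were DESeq2 1.42.0, limma-voom (limma 3.58.1), other scalings, no filter, each library left out and the replicate block. Deviations of same-numbered libraries correlated over genes at 0.285, 0.465 and 0.233, all above 0.1, so the numbers were taken to pair the libraries.

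The members, lists and tests were chosen with earlier results of these data known. Named beside the members were the 3 genes of smallest p per list and the 3 closest in pattern to Fos and to Egr1. Promoter sequences are RefSeq's (GRCm38.p6), and exons are GENCODE M21's. Values of some genes that the naming rule chose outside the set are not reported here.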

Additional observations from a re-analysis of the deposited data

How the results depend on the processing

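Fos, Jund, Egr1, Ier3 and Klf6 kept the sign of their log2 fold change under all 13 alternatives, and 0 of the 10 members were called under any of them. Of the members near 0, Jun was above 0 with limma-voom (0.022) and with the replicate block (0.020). With library totals recovered from RPKM, a scaling added after the data were seen, Fosb (0.033), Jun (0.074) and Junb (0.077) were above 0. With each library left out in turn the log2 fold change ran from -0.39 to 0.26 for Fosb, -0.13 to 0.98 for Fosl2, -0.24 to 0.21 for Jun, -0.076 to 0.085 for Junb and -0.016 to 0.15 for Ier2. The members at an unadjusted p under 0.05 numbered 3 with all libraries and 1 to 3 in those fits: 1 without 20% oxygen replicate 2 (Klf6) or 4% oxygen replicate 3 (Ier3). Among all tested genes, 451 were higher and 213 lower with all libraries. Without 20% oxygen replicate 2 these were 401 and 300 of 15386, and without 4% oxygen replicate 3 they were 227 and 65 of 15286. The members numbered 4 (Jund, Egr1, Ier3 and Klf6) with the block, with the RPKM totals and with no filter on low counts. Without the filter, 522 of all 18732 genes were higher and 268 lower. Members whose groups did not overlap numbered 4 with TMM, beside 948 higher and 557 lower among all 14979 tested genes. With upper quartile scaling they were 2 (Jund and Klf6), beside 905 higher and 533 lower among all tested genes. That scaling was planned, but the count of groups that did not overlap under it was added later.

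Over all genes edgeR called 0 higher and 0 lower. DESeq2 called 53 and 6, no filter on low counts 25 and 2, and the replicate block 11 and 0; leaving out a library gave 0 higher and 0 to 1 lower. At an unadjusted p under 0.05, 451 were higher and 213 lower, against 900 and 428 with the block, 320 lower with DESeq2, and 600 higher and 111 lower with the RPKM totals; leaving out a library gave 227 to 885 higher and 65 to 460 lower. The causes were not tested. No scaling moved the median of all genes by more than 0.1 on the log2 scale. The replicate block changed no call of a member after adjustment. With 3 libraries per group and these depths, the spread between libraries rather than counting error sets the width of the intervals.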
